A study of Rattus norvegicus with 12 samples.

Results

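The matrix metalloproteinases (MMPs) and tissue inhibitors of metalloproteinases (TIMPs) described here are 9 rat genes, the proteases Mmp2, Mmp3, Mmp9, Mmp10, Mmp13 and Mmp14 and the inhibitors Timp1, Timp2 and Timp3. Their probe sets were taken by gene symbol in the platform annotation, and the list of genes was drawn up with earlier results of these data known. All 9 were measured, by 16 of the 31042 probe sets tested, which name 14217 genes. The arrays came from esophagus of rats injected under the skin with N-nitrosomethylbenzylamine (NMBA), a nitrosamine that gives rats squamous tumors of the esophagus, or with its solvent. Each injection held 0.3 mg of NMBA per kg, and there were 3 a week over 5 weeks. The 4 groups, of 3 arrays each, were control rats given solvent of DMSO and water, and rats given NMBA and sampled at week 6, week 15 and week 29, staged in the labels as early, middle and late tumor development. The sources used here give no strain, sex or age, nor the week of control sampling, so treatment cannot be told apart from a difference in age. Nothing ties each array to its own animal, and the p-values therefore reflect only the spread among these arrays, which may be technical.

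MMPs are zinc-dependent endopeptidases that cleave collagens, gelatin, basement membrane proteins and many cell-surface and secreted proteins outside the cell. Most are secreted as inactive proenzymes, and TIMPs bind the active enzymes and block them. In squamous epithelia and their tumors much of the Mmp2 and Timp2 RNA is made by stromal fibroblasts, whereas Mmp3, Mmp9, Mmp10 and Mmp13 are low in resting tissue and inducible in keratinocytes, fibroblasts or leukocytes by cytokines and growth factors.

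Deposited values were log2 probe set signals, on which a step of 1 is a 2-fold change, and a higher value of 1 probe set than of another does not show more RNA. RNA of other tissue layers was present although the labels describe epithelium stripped of submucosa and muscle. The basal keratinocyte score, the mean log2 signal of 14 measured marker genes of 16, averaged 10.8 ± 0.17 for the control arrays, 10.2 ± 0.12 for week 6, 10.9 ± 0.058 for week 15 and 10.2 ± 0.32 for week 29 (SD, n = 3 each). The skeletal muscle score over 42 of 44 markers averaged 11.8 ± 0.23 for the control arrays, 12.3 ± 0.067 for week 6, 10.8 ± 0.76 for week 15 and 12.2 ± 0.12 for week 29. The fibroblast score over 34 of 34 markers was 10.1 ± 0.34, 9.90 ± 0.19, 9.22 ± 0.21 and 9.76 ± 0.25 in the same order. Array 1 of week 15 had the highest signal of the 12 arrays for 7 of the 16 member probe sets. In bulk tissue, fewer cells of a type and less RNA per cell cannot be told apart.

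Of the 9 genes, 4 lay near the signal floor in every group, namely Mmp3, Mmp9, Mmp10 and Mmp13, all of them proteases. A probe set was placed there when its highest group mean was under 6.52, the 90th percentile of 53 probe sets for genes of other tissues, such as olfactory receptors. Under this rule 47.1% of all probe sets lay near the floor. Counted by gene, with the brightest probe set for each, 4305 of 14217 genes did. A lower limit of 4.91, the 25th percentile of all probe sets, named the same number of member genes, 4. The second probe set of Mmp2 (1369825_at, 4.83 to 5.42) was also near the floor, which brought the count to 6 of 16 probe sets. None of the 3 TIMP genes was near it by its brightest probe set. A signal near the floor limits what can be said of a gene: it does not show that the RNA is absent.

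The rat genes Mmp13, Mmp3 and Mmp10 lie in 1 cluster on chromosome 8, in the RefSeq annotation of GRCr8, with Mmp12, Mmp1b, Mmp1, Mmp8, Mmp27, Mmp20 and Mmp7. RefSeq promoter windows, of 250 bases before to 50 after the start, were matched for 6 of the 9 genes, and Mmp2, Mmp9 and Mmp14 are named only. The 120 bases before the start are given here for the cluster genes and Timp1, to set the letters of proteases near the floor beside those of an inhibitor well above it. Capitals mark AP-1 letters (TGANTCA, or the variant TGAGTAA), the PEA3 letters AGGAAG and the TATA box TATAAA. AP-1 is the dimer of Fos and Jun proteins, PEA3 is a letter string bound by Ets factors, and a TATA box places the start of transcription. The stretches are Mmp3 at chr8:12925161-12925280 (+), Mmp10 at chr8:12974587-12974706 (+), Mmp13 at chr8:12782709-12782828 (+) and Timp1 at chrX:3771123-3771242 (-), all in GRCr8 and written 5′ to 3′ on the gene strand.
Mmp3: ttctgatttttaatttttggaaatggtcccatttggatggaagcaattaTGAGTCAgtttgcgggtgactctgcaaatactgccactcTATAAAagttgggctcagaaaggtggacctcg
Mmp10: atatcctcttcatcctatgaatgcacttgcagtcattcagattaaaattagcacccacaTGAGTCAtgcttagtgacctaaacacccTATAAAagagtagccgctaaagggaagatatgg
Mmp13: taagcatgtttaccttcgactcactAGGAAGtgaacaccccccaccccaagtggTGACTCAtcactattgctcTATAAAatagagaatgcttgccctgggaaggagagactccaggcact
Timp1: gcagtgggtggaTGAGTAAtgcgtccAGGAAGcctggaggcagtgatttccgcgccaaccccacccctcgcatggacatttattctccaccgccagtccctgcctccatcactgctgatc

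TGANTCA followed by TATAAA stands in all 3 protease promoters. Its first base lay at -71 in Mmp3, -61 in Mmp10 and -66 in Mmp13, counted from the start. Of 33469 RefSeq promoters, 7.33% hold TGANTCA on either strand, 8.8% hold TATAAA on the gene strand and 0.911% hold both. TGAGTAA stands in 2.9% of promoters and AGGAAG in 34.5% (either strand). The windows of Timp2 and Timp3 held none of these letters and were 70.3% and 68.7% G and C, against 42% in Mmp3, 38.3% in Mmp10, 45.3% in Mmp13, 61.3% in Timp1 and a median of 51.7% over all promoters. A match is a description of letters, not of a bound site.

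The stromelysins come first among the dim genes. Mmp3, stromelysin 1, which cleaves proteoglycans, laminin and other proMMPs, had signals of 3.80, 3.74 and 3.45 in controls, 3.61, 3.65 and 3.64 at week 6, 4.14, 3.99 and 3.93 at week 15 and 3.67, 3.94 and 4.00 at week 29. All 3 week 15 arrays lay above all week 6 arrays and all controls. Mmp3 was 0.39 ± 0.12 higher at week 15 than at week 6 on the log2 scale (SE, limma adjusted p = 0.0201). At week 15 its difference from control was 0.35 and did not pass the test (adjusted p = 0.0808). Of all 4305 genes near the floor, 13.2% were called higher at week 15 than at week 6, a group that includes Mmp3. The call was lost without array 1 of week 15 (0.33, adjusted p = 0.0744), array 1 of week 6 (0.38, 0.0561) or array 3 of week 6 (0.39, 0.0503).

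Mmp10, stromelysin 2, ran between 3.76 and 4.15 over the 12 arrays, with its highest array at week 29. Mmp13, collagenase 3, the main interstitial collagenase of rodents, had 2.86, 2.87 and 2.90 in controls and 2.72, 2.81 and 2.94 at week 6, then 3.55, 3.07 and 2.87 at week 15 and 2.91, 3.01 and 2.95 at week 29. A single array, number 1 of week 15, stood above all others for Mmp13, and its groups overlapped at weeks 6 and 15. Mmp9, gelatinase B, typical of neutrophils and macrophages, lay between 3.56 and 4.06 in 1 probe set (1369166_at) and between 3.27 and 4.11 in the other (1398275_at). Neither Mmp9 nor Mmp10 nor Mmp13 passed the test in any of the 6 comparisons. For Mmp13 at week 15 against week 6 the difference was 0.34 (adjusted p = 0.0787), the nearest of these to the threshold.

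**Figure D1:**
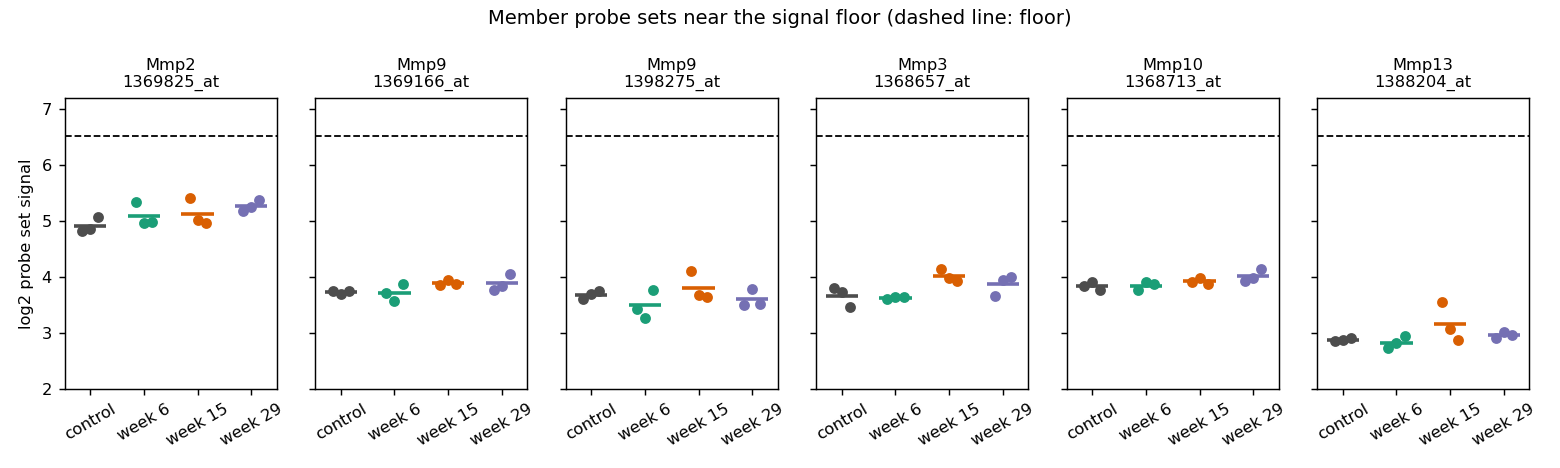
Log2 signal (vertical axis) of the 6 member probe sets near the floor, of Mmp2, Mmp3, Mmp9, Mmp10 and Mmp13, by group; points are arrays, horizontal bars are group means and the dashed line is the floor of 6.52. All points lie under the line, and Mmp3 at week 15 (3.93 to 4.14) lies above Mmp3 at week 6 (3.61 to 3.65).

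Against control, few members changed, and those that did were lower after NMBA. At week 6 the membrane protease Mmp14 fell and no member rose. At week 15 Mmp2 and Timp3 fell. At week 29 Mmp14 and Timp3 fell. The counts of higher and lower members were 0 and 1 of 9 at week 6, against 5.07% and 3.76% of all 14217 genes. They were 0 and 2 at week 15, against 1.54% and 8.38% of all genes, and 0 and 2 at week 29, against 8.44% and 10.8%. Over the 9 members the median log2 fold change was -0.05, 0.08 and -0.20 at weeks 6, 15 and 29, against -0.03, 0.03 and 0.01 over all genes. These 3 comparisons share the control arrays.

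Between NMBA weeks more members differed, as did more genes on the whole array. At week 15 against week 6, Mmp3 and Mmp14 were higher and Mmp2, Timp2 and Timp3 were lower, which is 2 and 3 of 9 members against 22.7% and 21.2% of all genes. At week 29 against week 15, Mmp2 was higher and Mmp14 and Timp1 were lower, 1 and 2 members against 21.1% and 22.4% of all genes. No member differed between week 29 and week 6 by limma, where 0 and 0% of all genes were called in either direction; at an unadjusted p under 0.05 there were 3005 probe sets, and 1 member gene, Timp3. An overall limma F test called 4 members, Mmp2 (adjusted p = 0.0357), Mmp14 (0.0106), Timp2 (0.0442) and Timp3 (0.00829), against 42.5% of all genes. Shares near those of all genes are no result about the family as such.

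**Figure D2:**
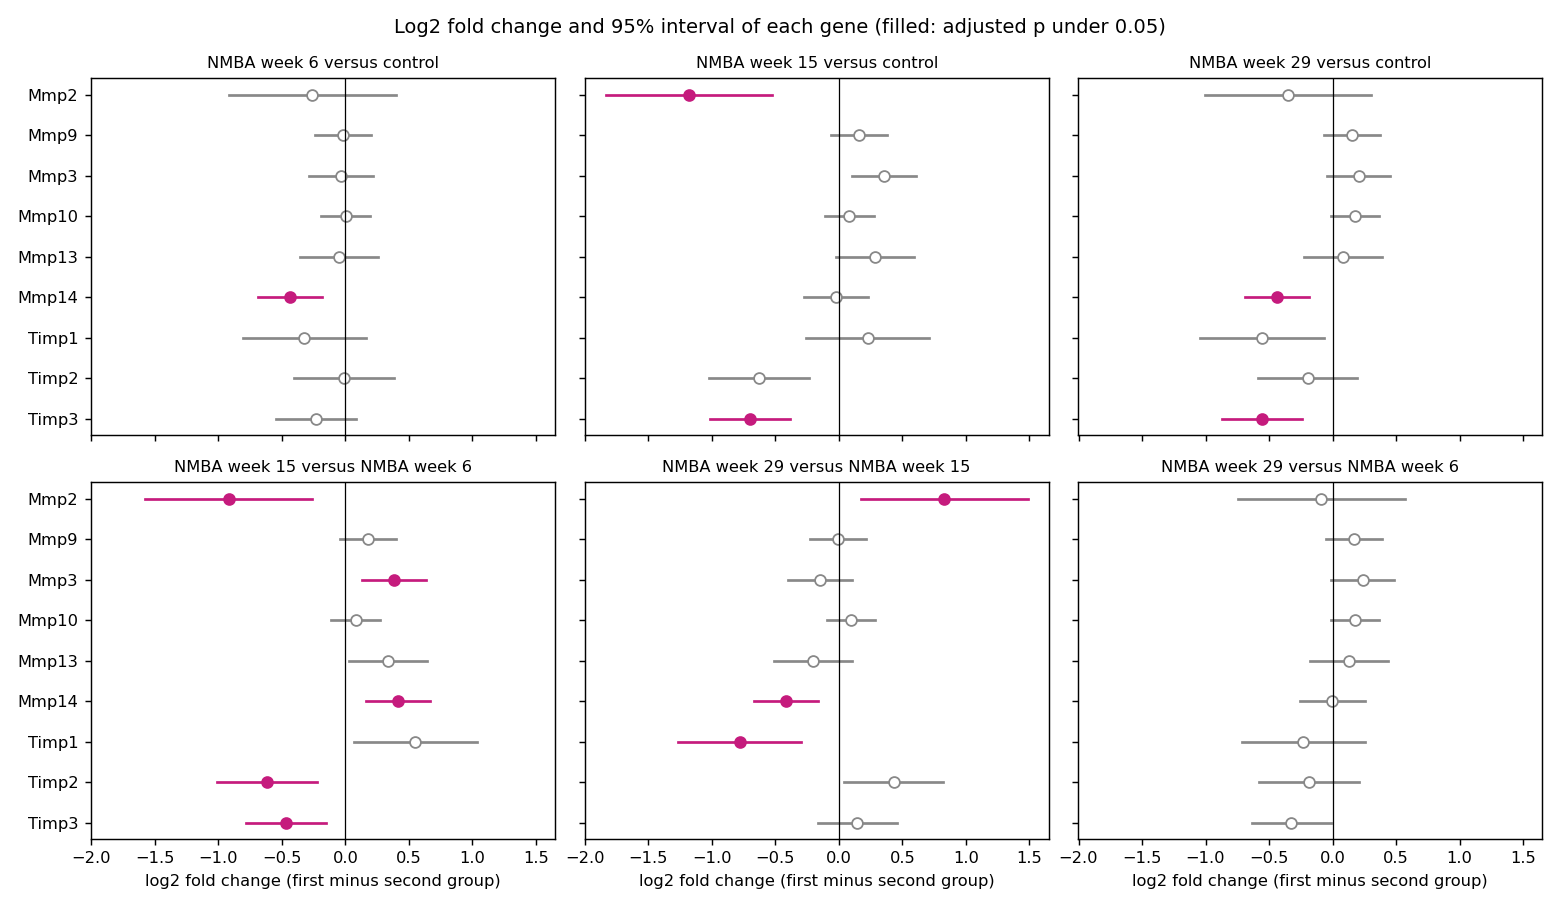
Log2 fold changes of the 9 genes, brightest probe set each, in the 6 comparisons; points are limma estimates (filled where called), lines are 95% confidence intervals, and each difference is the first group named minus the second. Mmp2 at week 15 against control (-1.18) is the farthest from 0.

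Mmp2, gelatinase A, the type IV collagenase made chiefly by fibroblasts, was lowest at week 15. Its probe set 1370301_at read 10.71, 9.62 and 10.04 in controls, 9.59, 9.76 and 10.24 at week 6, 9.42, 9.03 and 8.37 at week 15 and 9.64, 10.11 and 9.56 at week 29. All 3 week 15 arrays lay under every array of the other groups, which overlapped with each other. At week 15 it was lower than in controls by 1.18 ± 0.30 on the log2 scale (SE, limma adjusted p = 0.0345 with 3 arrays a group), a 2.27-fold difference with a 95% interval of -1.84 to -0.52. It was also lower at week 15 than at week 6 (-0.92, adjusted p = 0.0307) and higher at week 29 than at week 15 (0.83, adjusted p = 0.0492). The second probe set, 1369825_at, which lay near the floor, did not show this fall. It was 0.22 at week 15 against control (adjusted p = 0.351), 0.04 against week 6 (0.859) and 0.135 at week 29 against week 15 (0.493).

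Leaving out single arrays ended each Mmp2 call. The week 15 call against control was lost without array 1 of the controls (-0.89, adjusted p = 0.101), array 3 of the controls (-1.22, 0.0792), array 2 of week 6 (-1.18, 0.0511) or array 3 of week 15 (-0.90, 0.11). The call against week 6 was lost without array 2 or 3 of week 6 or array 3 of week 15, with values of -0.97, -0.73 and -0.63. The week 29 call against week 15 was lost without any of 8 arrays, of which array 3 of week 15 moved it most, to 0.55.

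**Figure D3:**
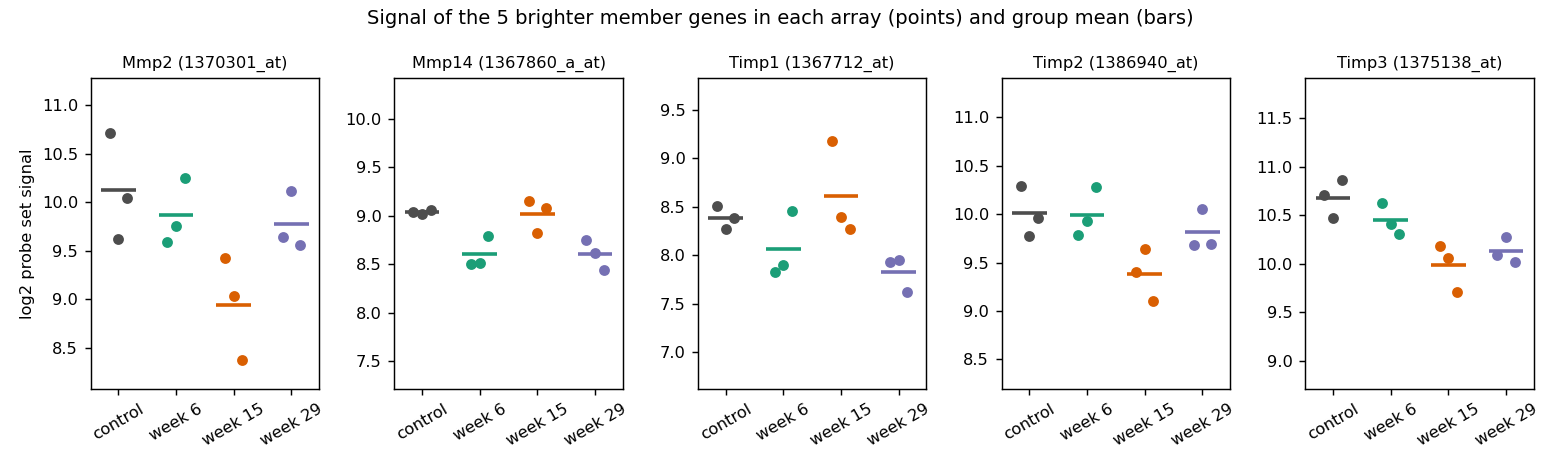
Log2 signal (vertical axis, a span of equal length in each panel) of Mmp2, Mmp14, Timp1, Timp2 and Timp3 by group, brightest probe set each; points are arrays and horizontal bars are group means. Mmp2 has its lowest points at week 15 (9.42, 9.03 and 8.37), while the Mmp14 means are 9.04 for control, 8.60 for week 6, 9.02 for week 15 and 8.60 for week 29.

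Mmp14, the membrane-type protease that activates proMmp2 in a complex with Timp2, followed another order. Its signals in 1367860_a_at were 9.04, 9.02 and 9.05 in controls, 8.50, 8.51 and 8.79 at week 6, 9.15, 8.82 and 9.08 at week 15 and 8.75, 8.61 and 8.44 at week 29. Weeks 6 and 29 lay under every control, and week 15 overlapped with the controls. Mmp14 fell by 0.44 ± 0.12 on the log2 scale at week 6 against control (SE, limma adjusted p = 0.0436) and by 0.44 ± 0.12 at week 29 (adjusted p = 0.0301). At week 15 it differed from control by -0.02, with an interval of -0.28 to 0.23. It was higher at week 15 than at week 6 (0.41, adjusted p = 0.0151) and lower at week 29 than at week 15 (-0.42, adjusted p = 0.0151). The second probe set 1378225_at read 7.34, 7.17 and 7.16 in controls, 6.97, 7.02 and 7.08 at week 6, 7.63, 7.27 and 7.38 at week 15 and 7.18, 7.01 and 6.90 at week 29. Week 15 was again above weeks 6 and 29, without overlap. This probe set gave 0.41 (adjusted p = 0.0126) and -0.40 (adjusted p = 0.0144) for these 2, and against control -0.20 at week 6 and -0.19 at week 29, neither of which passed.

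The week 6 call of Mmp14 was lost without any 1 of the 3 controls or the 3 week 6 arrays (adjusted p from 0.0726 to 0.132), or without array 2 of week 29. The week 29 call was lost without any control or array 2 or 3 of week 29. The value ranged from -0.53 to -0.39 at week 6 and from -0.51 to -0.36 at week 29. Between weeks, its call at week 15 against week 6 was lost without array 1 or 2 of week 6 or array 1 of week 15, and that at week 29 against week 15 without array 1 or 3 of week 15 or array 3 of week 29.

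Timp1, an inducible inhibitor of most secreted MMPs, differed between weeks 29 and 15. It read 8.50, 8.27 and 8.38 in controls, 7.82, 7.90 and 8.46 at week 6, 9.18, 8.39 and 8.27 at week 15 and 7.93, 7.95 and 7.62 at week 29. Week 29 was under every array of week 15 and of the controls, and the other groups overlapped. It was lower at week 29 than at week 15 by 0.78 ± 0.22 on the log2 scale (SE, limma adjusted p = 0.0161), 1.72-fold. The call was lost without array 1 of week 15 (-0.50, adjusted p = 0.0546) or array 3 of week 29 (-0.68, 0.0712). At week 29 against control its value was -0.56, with an interval of -1.04 to -0.07, and did not pass (adjusted p = 0.108).

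Timp2, the inhibitor that both blocks Mmp2 and links it to Mmp14, was lowest at week 15. Its probe set 1386940_at read 10.29, 9.77 and 9.96 in controls, 9.78, 9.93 and 10.28 at week 6, 9.40, 9.64 and 9.10 at week 15 and 9.68, 10.05 and 9.70 at week 29. Each week 15 array was under each array of the other groups. It was lower at week 15 than at week 6 by 0.61 ± 0.18 on the log2 scale (SE, limma adjusted p = 0.0185), a call lost without array 3 of week 6 (-0.47, 0.0809) or array 3 of week 15 (-0.47, 0.0733). Against control the week 15 value was -0.63 and just missed the threshold (adjusted p = 0.0534). Its second probe set, 1367823_at, read between 7.43 and 8.86 over all arrays, with the highest in array 3 of week 6. That probe set was -0.10 at week 15 against control and did not pass. At week 15 against week 6 it was -0.49, with overlapping groups, and did not pass either (limma adjusted p = 0.137).

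Timp3, which is bound to matrix and also inhibits ADAM proteases, was lower at weeks 15 and 29. Its probe set 1375138_at read 10.70, 10.47 and 10.86 in controls, 10.63, 10.41 and 10.31 at week 6, 10.18, 10.06 and 9.70 at week 15 and 10.09, 10.28 and 10.01 at week 29. All arrays of weeks 15 and 29 were under all controls. Timp3 was lower than in controls by 0.70 ± 0.14 on the log2 scale at week 15 (SE, limma adjusted p = 0.0162) and by 0.56 ± 0.14 at week 29 (adjusted p = 0.0273). It was lower at week 15 than at week 6 (-0.47, adjusted p = 0.0230), and between weeks 29 and 15 its difference of 0.14 in this probe set did not pass (adjusted p = 0.481).

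Timp3 has 4 probe sets, and they did not move alike. At week 15 against control 1389836_a_at was -0.69 (adjusted p = 0.0193) and 1372926_at was -0.88 (adjusted p = 0.0303), whereas 1368989_at was -0.18 and did not pass. At week 29 against control only 1375138_at passed. At week 29 against week 15, however, 1389836_a_at was higher by 0.41 (adjusted p = 0.0469), with no overlap of the groups, and 1372926_at was at 0.57, also with no overlap, but did not pass (adjusted p = 0.0583). The signals of 1372926_at were 6.36, 6.53 and 5.95 at week 15, against 7.18, 7.02 and 7.27 in controls, and those of 1389836_a_at were 9.65, 9.70 and 9.20 at week 15, against 10.15, 10.05 and 10.42 in controls. In both probe sets the groups did not overlap. Probe set 1368989_at read 6.31, 6.68 and 6.01 at week 15, against 6.24, 6.79 and 6.53 in controls, and its groups overlapped. Over the 12 arrays the probe set pairs of Timp3 correlated between 0.233 and 0.901, those of Mmp14 at 0.852, those of Timp2 at 0.539 and those of Mmp2 at -0.145. The Timp3 call at week 15 against control was lost without array 3 of the controls (-0.61, 0.0595) or array 3 of week 15 (-0.56, 0.0521), that at week 29 without array 1 or 3 of the controls or array 2 or 3 of week 29, and that at week 15 against week 6 without array 1 of week 6 or array 3 of week 15.

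**Figure D4:**
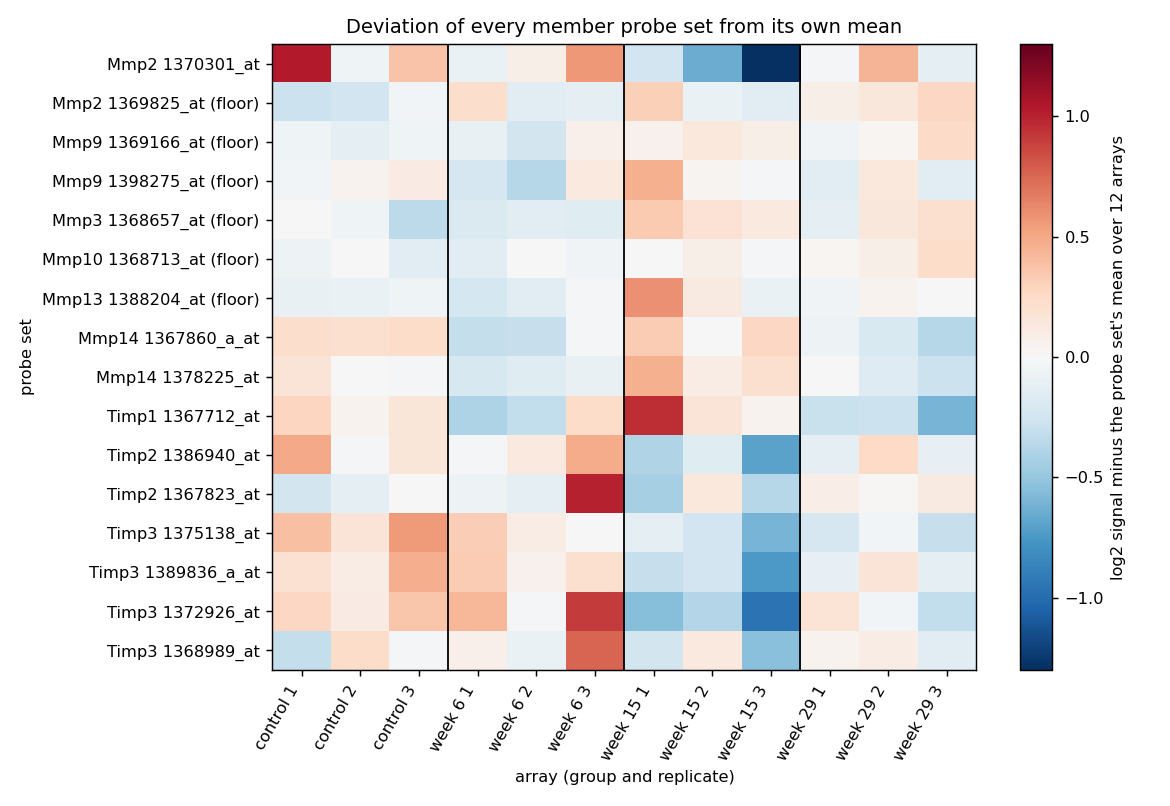
Deviation of each of the 16 probe sets (rows) in each of the 12 arrays (columns) from that probe set's own mean, in log2 units on the colour scale; black lines part the groups and "floor" marks probe sets near it. Array 3 of week 15 is the lowest for Mmp2 (8.37) and Timp3 (9.70), and array 1 of week 15 the highest for Timp1 (9.18) and Mmp13 (3.55).

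Mmp2, Timp2 and Timp3 moved with markers of fibroblasts and matrix. The fibroblast score was at most 9.43 at week 15, against at least 9.72 in controls. At week 15 against control, 21 of its 34 markers were called lower and 0 higher, with a median of -0.96. Among all genes 8.38% were called lower and 1.54% higher. Of the 34, 0 lay near the floor. Over the 12 arrays the score correlated with Mmp2 at r = 0.969, with Timp2 at 0.931 and with Timp3 at 0.813, and over deviations from the group means at 0.938, 0.852 and 0.574. Timp3 also correlated with a score of 20 endothelial markers, at 0.658 over the arrays and at 0.612 over deviations. Over deviations that score also correlated with Mmp2 at 0.703, Timp2 at 0.492 and Timp1 at 0.469, beside Mmp14 at -0.101. Over the arrays it correlated with Mmp14 at 0.592 and Timp1 at 0.576, beside Mmp2 at 0.419 and Timp2 at 0.308. The endothelial relation was therefore not particular to Timp3. These points share arrays and groups, so the values are a description. With the fibroblast score as a term in the limma fit Mmp2 at week 15 against control was 0.24 (adjusted p = 0.790). Timp2 at week 15 against week 6 was then -0.05 (0.893), and Timp3 at week 15 against control was -0.33 (0.716). With the skeletal muscle score as a term they were -0.86 (0.422), -0.20 (0.778) and -0.44 (0.353). The part of tissue composition in these results was not tested.

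**Figure D5:**
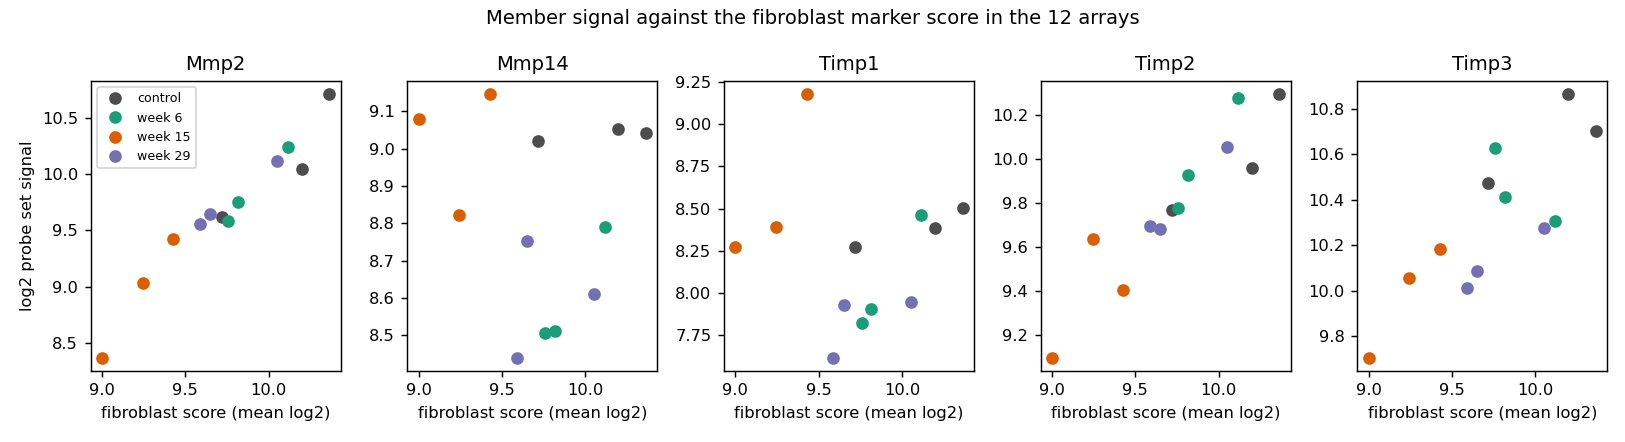
Log2 signal (vertical axis) of Mmp2, Mmp14, Timp1, Timp2 and Timp3 against the fibroblast score (horizontal axis, mean log2 signal of 34 markers) of each of the 12 arrays, coloured by group. Mmp2 (r = 0.969) and Timp2 (r = 0.931) run along the score, with the week 15 arrays at its low end, while Mmp14 (r = -0.087) and Timp1 (r = -0.042) do not.

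Mmp14 and Timp1 showed no such relation to the fibroblast score over the pooled arrays. With that score as a term, Mmp14 was -0.40 at week 6 against control (limma adjusted p = 0.0881) and -0.38 at week 29 against control (0.111). It was 0.54 at week 15 against week 6 (0.0704), so that these Mmp14 calls were lost as well. The calls of Mmp14 and Timp1 at week 29 against week 15 held. Mmp14 correlated with the basal keratinocyte score at 0.848 and with the fibroblast score at -0.087 over 12 arrays, and over deviations from group means at 0.319 and 0.323. At week 15 against week 6, 11 of 14 basal keratinocyte markers were called higher and 1 lower. Of 24 suprabasal markers, 20 were called higher, beside 22.7% of all genes called higher and 21.2% lower. Timp1 correlated with the myeloid score of 25 markers, 10 of them near the floor, at 0.747, and over deviations at 0.803, beside -0.042 and 0.700 with the fibroblast score. Over deviations the myeloid score also correlated with Mmp2 at 0.871 and Timp2 at 0.612, beside Timp3 at 0.472 and Mmp14 at 0.251. This relation was therefore not particular to Timp1. The myeloid score of array 1 of week 15, the array highest for Timp1, was 7.13, above the week 15 mean of 6.62 ± 0.48 (SD, n = 3). The GAPDH 3′ minus 5′ control signal, a gauge of RNA integrity, averaged 0.40 for the control arrays, 0.11 for week 6, 0.40 for week 15 and 0.17 for week 29. It correlated over the 12 arrays with Mmp14 at 0.767 and Timp1 at 0.727, and over deviations at 0.311 and 0.532. Over deviations it also correlated with Mmp2 at 0.567 and Timp3 at 0.495, beside Timp2 at 0.175. With the GAPDH value as a term, Mmp14 was -0.34 at week 6 against control (limma adjusted p = 0.547) and -0.36 at week 29 against control (0.232). It was 0.32 at week 15 against week 6 (0.217) and -0.34 at week 29 against week 15 (0.131). Timp1 at week 29 against week 15 was -0.48 (0.206). Calls were also lost for Timp3 at week 29 against control (0.252), and for Timp2 (0.0868) and Mmp3 (0.233) at week 15 against week 6. The calls of Mmp2 and the other calls of Timp3 held. With the skeletal muscle score as a term, which correlated with Mmp14 at -0.691, Mmp14 was 0.17 at week 15 against week 6 (adjusted p = 0.707), -0.20 at week 29 against week 15 (0.660), -0.36 at week 6 against control (0.175) and -0.38 at week 29 against control (0.0695), so that none of its 4 calls held. Timp1 at week 29 against week 15 was then -0.93 (0.267). The part of RNA integrity or muscle in these results was not tested.

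The difference between protease and inhibitor signal was taken per array, as a shift and not a ratio of amounts, since probe sets differ in brightness. Mmp14 minus Timp2 was -1.27, -1.42 and -1.49 at week 6, against -1.25, -0.75 and -0.91 in controls, a shift of -0.42 (exact two-sided permutation test, p = 0.1, the smallest that 3 against 3 arrays allow). At week 15 it was -0.26, -0.82 and -0.02, a shift of 0.61 from control (exact p = 0.2), and at week 29 -0.24 (exact p = 0.2). Mmp2 minus Timp2 shifted by -0.25, -0.55 and -0.15 at weeks 6, 15 and 29 (exact p = 0.2, 0.2 and 0.5). Single arrays moved several of these shifts by over 1.5 times. Mmp2 minus Timp2 was -0.099 at week 6 and -0.0037 at week 29 without array 1 of the controls, and -0.38 and -0.29 without array 2 of the controls. Mmp14 minus Timp2 at week 29 was -0.38 without array 1 of the controls or array 1 of week 29, -0.13 without array 2 of the controls and -0.12 without array 2 of week 29. Mmp3, Mmp9, Mmp10 and Mmp13 minus Timp1 shifted by 0.76, 0.71, 0.73 and 0.64 at week 29 against control (exact p = 0.1 each). At weeks 6 and 15 none of these pairs reached an exact p of 0.1. These proteases lay near the floor and all were set against the same Timp1 signals, so the pairs are not separate results. No such test can pass the threshold of 0.05 with 3 arrays a group.

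Other MMP and TIMP genes were given by a list of 20, of which 12 were measured and 6 lay near the floor. Against control, Mmp24, a membrane-type MMP, rose at week 6 (0.63, adjusted p = 0.0275) and week 29 (0.50, 0.0363). Timp4 fell at week 15 (-0.48, 0.0495), and Mmp17 and Mmp28 fell at week 29 (-0.41 and -0.34). The counts of higher and lower genes among the 12 were 1 and 0 at week 6, 0 and 1 at week 15 and 1 and 2 at week 29. The shares of all genes were 5.07% and 3.76%, 1.54% and 8.38%, and 8.44% and 10.8%. Between weeks the counts were 2 and 3 at week 15 against week 6, beside 22.7% and 21.2% of all genes. At week 29 against week 15 they were 3 and 2, beside 21.1% and 22.4%. Such small counts are no result about the list. Timp4 and Mmp24 were lower at week 15 than at week 6 (-0.87 and -0.86). Mmp28 was higher (0.56), as was Mmp12 (0.46), which lay near the floor. The Timp4 mean was 6.66 for week 6, just over the floor of 6.52, and 5.79 for week 15, under it. The Mmp28 mean was 6.67 for week 15, also just over it, and 6.11 for week 6. Against control, the Timp4 fall compared means of 5.79 and 6.27, and the Mmp28 fall 6.12 and 6.46. All of these lay under the floor.

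Regulators of MMPs were given by a list of 31, of which 28 were measured and 15 lay near the floor. Reck, a membrane-anchored inhibitor of MMPs, fell at week 15 against control by 1.15 on the log2 scale (adjusted p = 0.00484), with Plat, tissue plasminogen activator (-0.85), and the proprotein convertase Pcsk5 (-0.93). St14, the epithelial serine protease matriptase, was -0.72 at week 6 and -1.07 at week 29 against control, and 1.09 at week 15 against week 6. Serpine2, a serine protease inhibitor of plasmin and thrombin, was -1.85 at week 15 against week 6. Of the 28 regulators, 0 were called higher against control, and 1, 4 and 5 were called lower at weeks 6, 15 and 29, where 3.76%, 8.38% and 10.8% of all genes were called lower. These small counts lie near the background.

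Cytokine and transcription factor genes that induce MMPs were given by a list of 36, with 32 measured and 8 near the floor. At week 15 against week 6, 15 of the 32 rose and 3 fell, beside 22.7% and 21.2% of all genes. The median was 0.33, against 0.07 for all genes. At week 29 against week 15, 3 rose and 13 fell, beside 21.1% and 22.4% of all genes. The median was then -0.38, against -0.02. Junb, a subunit of AP-1, was 0.91 higher at week 15 than at week 6 (limma adjusted p = 0.000718). Jun, also a subunit of AP-1, went the other way, with 10.37, 10.27 and 10.11 at week 15, against 11.07, 10.90 and 10.98 at week 6. Tgfb3 was lower by 1.22 at week 15 than at week 6 (adjusted p = 0.00108). Il1b read 8.08, 6.35 and 6.26 at week 15, against 5.59, 5.74 and 5.93 at week 6, so that array 1 of week 15 stood above the rest. Against control the counts of higher and lower inducers were 1 and 3 at week 6, 1 and 2 at week 15 and 1 and 7 at week 29, with medians of -0.21, 0.15 and -0.23. The shares of all genes were 5.07% and 3.76%, 1.54% and 8.38%, and 8.44% and 10.8%. At week 6 Jun rose by 0.77 (adjusted p = 0.0209), while the cytokine receptor genes Il17ra (-0.50), Il1r1 (-0.40) and Il6st (-0.33) fell. At week 15 Fosl2 rose (0.54) and Tgfb3 (-0.94) and Tgfb2 (-0.71) fell. At week 29 Jun rose (0.49), and Junb (-0.76), Il17ra (-0.69) and Il6st (-0.59) were among those that fell.

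The genes whose log2 signals were most like each bright member were taken from 9859 candidates by Pearson r over the 12 arrays. They were Col1a1 (0.980), Serpinf1 (0.975) and Gpx7 (0.972) for Mmp2, and Tpst1 (0.961), Ctsk (0.959) and Fstl1 (0.950) for Timp2. For Mmp14 they were Coro1c (0.963), Rnaseh2c (0.956) and Cnn2 (0.952), for Timp1 Serpina3n (0.920), Slc25a48 (0.910) and Cnn2 (0.903), and for Timp3 Numbl (0.954), Dlc1 (0.935) and RT1-T24-4 (0.929). Over deviations from the group means Col1a1, type I collagen, remained the first for Mmp2 (0.972), and Ccn2 (0.964), Tcf7l1 (0.950) and Tnc (0.948) were nearest to Timp1, while Ctf1 (0.979) was nearest to Mmp14. The arrays are shared by all genes, and so high values among so many candidates describe likeness only.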

How the data were processed

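Total RNA of 12 rat esophagus samples was measured on an Affymetrix expression array. Log2 probe set signals were deposited; according to the submitters' processing notes, the authors used Affymetrix Expression Console, and the sources used here do not name a summarization method or build. Values were used as deposited. The file held 31099 probe sets, 57 of them array controls, which were not tested. A single symbol was annotated for 20826 probe sets and several symbols for 436, while 9780 were unnamed, and all 9 member genes matched RefSeq.

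One limma model (limma 3.58.1, R 4.3.3; lmFit and eBayes) held the 4 groups, leaving 8 residual degrees of freedom. Tests were two-sided, with Benjamini-Hochberg adjustment over 31042 probe sets and calls at an adjusted p under 0.05. Each gene was represented by its brightest probe set on average. Named genes were every member with each probe set, up to 4 called genes per list and comparison, the 3 genes most alike to each bright member, and examples of marker lists. Members and lists were chosen with earlier results of these data known. The model was tested on simulated data. Arrays give no depth, so their number limits the precision. Alternatives were other normalizations, a filter on dim probe sets, fewer arrays, the replicate number as a block, covariates, array weights and the mean of a gene's probe sets. Promoters came from RefSeq GRCr8.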

Additional observations from a re-analysis of the deposited data

Results flagged for a closer look

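Between week 15 and week 6, limma found a difference between the NMBA weeks themselves for 5 genes: Mmp2 (-0.92), Mmp3 (0.39), Mmp14 (0.41), Timp2 (-0.61) and Timp3 (-0.47), in log2 units. Between week 29 and week 15 it did so for 3 genes: Mmp2 (0.83), Mmp14 (-0.42) and Timp1 (-0.78). Mmp3 lay near the signal floor. Both comparisons use the 3 week 15 arrays.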

How the results depend on the processing

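Between 9 and 18 of 22 alternatives kept the member calls (21 for Mmp3). Counts of called members, 1, 2 and 2 at weeks 6, 15 and 29 against control, 5 at week 15 against week 6, 3 at week 29 against week 15 and 4 by F test, became as follows where they moved by over 1.5 times. Week 6: 0 with array medians subtracted, the replicate block, the skeletal muscle, fibroblast or GAPDH covariate, or probe sets averaged. Week 15: 1 with quantile normalization or probe sets averaged, and 0 with only the 6 arrays compared or the muscle or fibroblast covariate. Week 29: 1 with the muscle covariate, 0 with the fibroblast or GAPDH covariate or probe sets averaged, and 4 with array weights. Week 15 against week 6: 2 with quantile normalization or GAPDH, 0 with muscle and 1 with fibroblast. With fibroblast all 5 of the original calls were lost, so that 1 call was of a member not called before. Week 29 against week 15: 0 with muscle and 1 with GAPDH. F test: 2 with quantile normalization, the replicate block, fibroblast, GAPDH or probe sets averaged, and 0 with muscle. Leaving out each array gave 0 to 1, 0 to 3 and 0 to 3 calls against control, 2 to 5 and 0 to 3 between those weeks, 0 between weeks 29 and 6, and 2 to 4 by F test. With the fibroblast covariate Mmp2 reversed to 0.24 at week 15 against control, 0.18 against week 6 and -0.052 at week 29 against week 15; Mmp2 minus Timp2 at week 29 reversed to 0.0011 with probe sets averaged. The causes were not tested. Over all probe sets, calls at week 6 against control ranged from 1 to 3454 and at week 29 from 274 to 6120 when an array was left out. Pairing of the arrays by replicate number was neither shown nor excluded. Of 18 same-numbered pairs, 8 had deviations correlated over 0.1, and 6 of 12 arrays correlated best with their own number. The block is therefore not evidence about the effects, and it gave 0 calls at week 6. Signals near the floor and 3 arrays per group limit what can be seen.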
